A study of Mus musculus with 12 samples.

Results

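The inflammasome and NOD genes described here were 9 genes of the innate danger response, measured in the whole blood of aged mice. They were taken by name from the blood expression table, in which all 9 were found among 8003 genes, and they hold 3 sensor genes (Nlrp1b, Nod1 and Nod2), 1 adaptor gene (Pycard), 3 caspase genes (Casp1, Casp4 and Casp12) and 2 cytokine genes (Il1b and Il18). The study made 12 RNA-seq libraries, 6 of them from blood, and the blood libraries form a control group (Ctrl, 3 mice) and a group given *Akkermansia muciniphila* (Akk, 3 mice). All mice were C57BL/6 and 15 months old. The labels call the control treatment Normal and name the agent of the Akk mice as a membrane protein of *A. muciniphila*, for 6 weeks in one label and 8 weeks in another, whereas the methods of the study describe gavage with the bacterium after antibiotics, and at one place describe the RNA donors as mice that the bacterium had not colonized. Which of these the libraries carry could not be settled, so Akk stands here for the label only. Each library came from 1 mouse, and the Ctrl and Akk mice that share a library number were different animals.

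An inflammasome is a protein platform that cells of the innate immune system build when a sensor detects a microbial product or damage. The sensor recruits the adaptor ASC, the product of Pycard, which gathers and activates caspase-1, and caspase-1 then cuts the precursors of the cytokines interleukin-1 beta and interleukin-18 and the pore-forming protein gasdermin D. NOD1 and NOD2 sense fragments of bacterial cell wall and signal mainly to NF-kB, while caspase-4, called caspase-11 in older mouse literature, binds bacterial lipopolysaccharide inside the cell and cuts gasdermin D directly.

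The 3 caspase genes are neighbours on the plus strand of chromosome 9 in the GRCm38.p6 annotation of RefSeq. Casp1 (gene 12362) lies at chr9:5298517-5307281, Casp4 (gene 12363) at chr9:5308849-5336791 and Casp12 (gene 12364) at chr9:5345442-5373034, with 1568 bases between Casp1 and Casp4 and 8651 bases between Casp4 and Casp12. No other RefSeq gene lies within the 74518 bases that the 3 genes span. The bases just before each gene's annotated start are shown as a description, and a link between them and the levels given below was not tested. The sequences are from RefSeq, on the plus strand, and capitals mark matches to an NF-kB consensus or to the GAS motif TTCNNNGAA, each searched on both strands. The windows are chr9:5298267-5298516 (250 bases, Casp1), chr9:5308599-5308848 (250 bases, Casp4) and chr9:5345226-5345441 (216 bases, Casp12).
Casp1: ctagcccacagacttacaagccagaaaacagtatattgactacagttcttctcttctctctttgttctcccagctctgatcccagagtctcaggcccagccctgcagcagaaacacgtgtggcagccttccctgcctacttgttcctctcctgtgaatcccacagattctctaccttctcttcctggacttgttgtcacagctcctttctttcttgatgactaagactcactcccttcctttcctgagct
Casp4: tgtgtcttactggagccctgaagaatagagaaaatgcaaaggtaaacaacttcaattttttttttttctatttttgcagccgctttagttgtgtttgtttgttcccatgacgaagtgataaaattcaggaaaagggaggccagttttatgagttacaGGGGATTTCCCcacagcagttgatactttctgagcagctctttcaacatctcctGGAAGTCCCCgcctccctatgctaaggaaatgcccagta
Casp12: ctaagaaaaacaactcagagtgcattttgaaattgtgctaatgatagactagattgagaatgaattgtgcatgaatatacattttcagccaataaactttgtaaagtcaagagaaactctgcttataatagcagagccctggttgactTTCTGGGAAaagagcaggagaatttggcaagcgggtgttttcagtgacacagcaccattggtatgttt

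The Casp4 window held 3 matches to the NF-kB consensus, 2 of which overlap in the first run of capitals. The Casp12 window held 1 match to TTCNNNGAA, and the Casp1 window held no match to either motif. Over the windows of the same 250 bases before 27025 mouse genes, 7.01% held the NF-kB consensus and 7.18% held TTCNNNGAA. Over windows of 216 bases, the shares were 6.00% and 6.29%. These matches describe the letters of the windows only, and no binding was measured.

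Values are FPKM (fragment counts adjusted for how long a transcript is and how much of the library was mapped), printed in the deposited table with 2 decimals. The blood table held selected genes, since 7997 of its 8003 genes had a ratio of group means of at least 1.5 in one direction or the other, and 99.5% had a lower mean in Akk. The lower mean of all 9 inflammasome and NOD genes in Akk was therefore shared by almost every gene of the table and is no result about them. Library Ctrl 1 stood apart. Its FPKM was the highest of the 6 libraries for 97.9% of all genes and for 9 of 9 of the genes described here. With 0.1 added to each FPKM, Ctrl 1 was 4.32 times the median of the other 5 libraries in the median gene of the table. The difference of each of the 9 genes is therefore also given without Ctrl 1 and after division of each library by a scale factor, which was 4.57 for Ctrl 1 and 0.643 to 1.11 for the other libraries. Total read numbers are not in the values, so the depth is unknown.

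The markers of blood cells were present in the libraries. All 11 neutrophil markers searched for, 7 of 8 monocyte, 4 of 7 T cell, 2 of 5 B cell, 5 of 5 NK cell, 5 of 5 platelet and 0 of 8 red cell markers were matched in the table, and none of the matched ones was at 0 in all libraries. The summed FPKM of the neutrophil markers was 281 to 1420 in Ctrl and 145 to 370 in Akk. For the monocyte markers, it was 72.2 to 959 in Ctrl and 76.6 to 123 in Akk. NK cell markers were the one list whose sums did not overlap as deposited, at 13.8 to 61.4 in Ctrl and 6.46 to 10.8 in Akk. After the scale factors the NK cell sums were 13.4 to 23.5 in Ctrl and 9.89 to 14.9 in Akk and overlapped. T cell marker sums were 4.99 to 12.1 in Ctrl and 1.61 to 5.67 in Akk, B cell marker sums were 2.76 to 12.9 and 2.17 to 6.02, and platelet marker sums were 298 to 2981 and 381 to 481. Since 99.5% of the genes of the table had a lower mean in Akk, lower marker values in Akk are no result about cell types. Markers absent from the table could not be read. In whole blood, fewer cells of a type and less RNA per cell cannot be told apart, and the part of these markers in the values below was not tested.

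**Figure D1:**
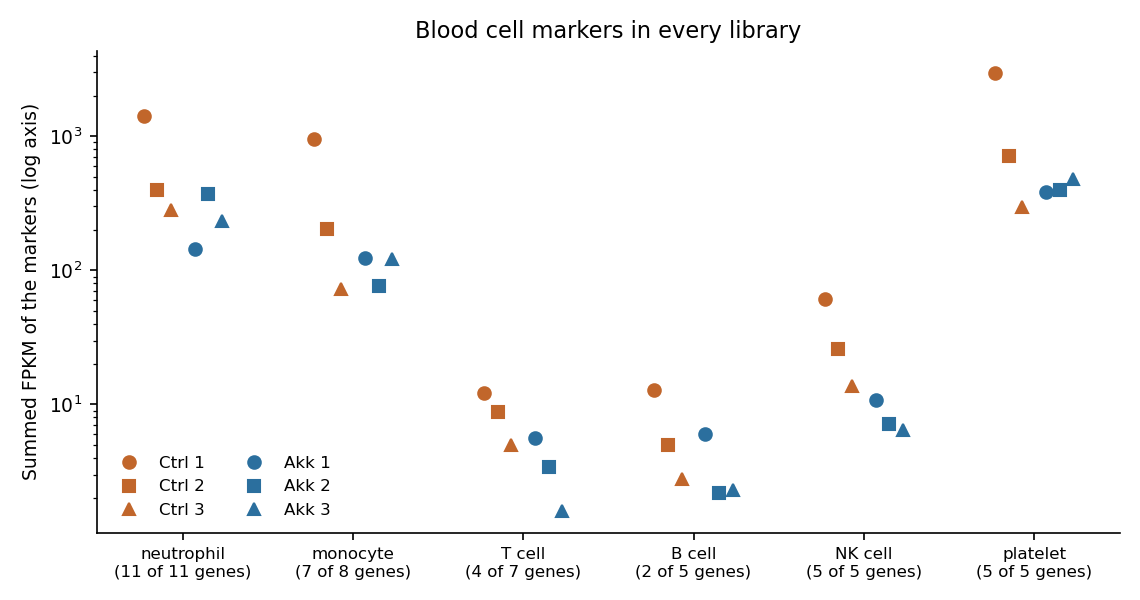
Summed FPKM of the markers of each blood cell type (log axis) in the 3 Ctrl and 3 Akk libraries, one symbol per library. Ctrl 1 is the highest library in each list, and the NK cell sums of Ctrl (13.8 to 61.4) lie above those of Akk (6.46 to 10.8), a separation that is lost after the scale factors.

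The levels of the 9 genes spanned a wide range. Il1b had by far the highest median over the 6 libraries, at 17.2 FPKM, followed by Casp4 at 1.35, Casp1 at 0.665, Nod1 at 0.550, Pycard at 0.240, Il18 at 0.125, Casp12 at 0.110, Nod2 at 0.0800 and Nlrp1b at 0.0250 FPKM. Of the neighbours in this order, Il1b was above Casp4, Casp4 above Casp1, Nod1 above Pycard and Nod2 above Nlrp1b in 6 of 6 libraries. Casp1 was above Nod1 in 5 of 6, Pycard above Il18 in 4 of 6, Il18 above Casp12 in 3 of 6 and Casp12 above Nod2 in 3 of 6 libraries. The order of these neighbours thus changed between libraries, and their difference in level was not tested. FPKM is per length of transcript, so these levels can be set side by side between genes.

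**Figure D2:**
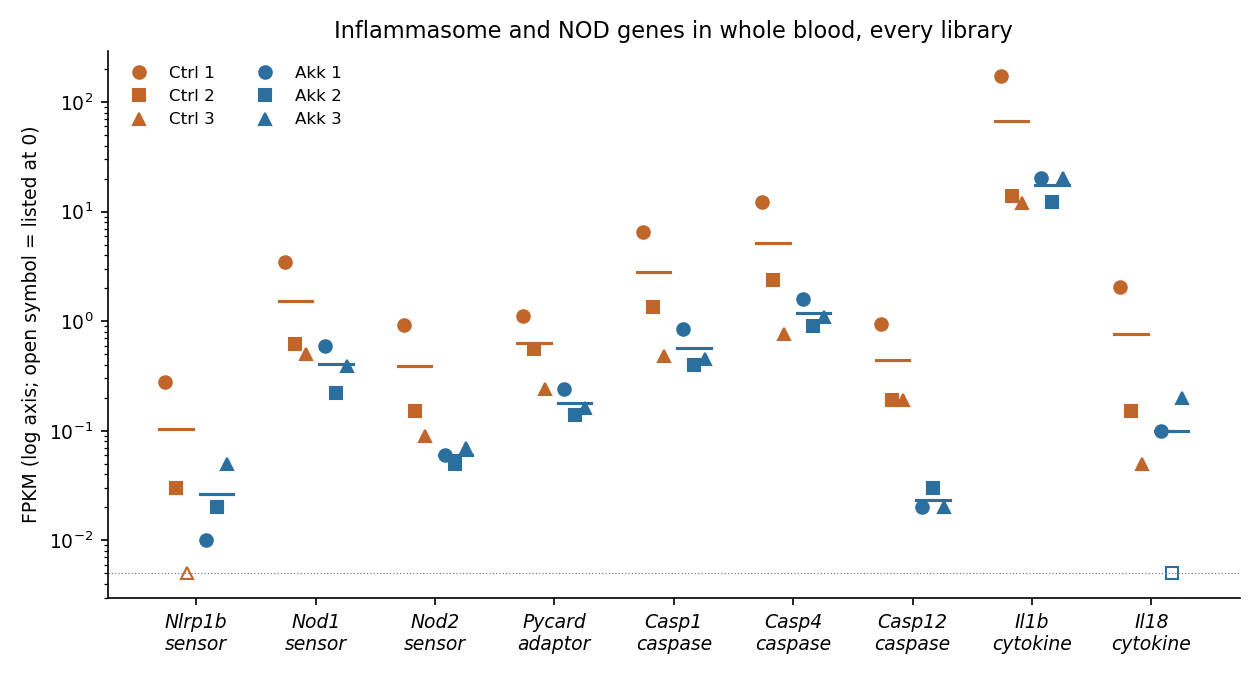
FPKM (log axis) of the 9 genes in each of the 6 blood libraries, with a line at each group mean; an open symbol marks a value listed at 0. Ctrl 1 is the highest library for each gene, and the other Ctrl libraries lie above all Akk libraries only for Nod2 and Casp12.

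Differences between groups were tested with limma on log2(FPKM + 0.1) over all 8003 genes, with Benjamini-Hochberg adjustment, and a call needed an adjusted p no larger than 0.05 together with a change of 1.5-fold or more. Of the 9 genes, 0 were called, and of all genes tested 0 were called (0%). Because the table was selected on this group difference, the adjustment and the shares beside the counts are not those of all measured genes. At an unadjusted p under 0.05, 1 of the 9 genes (Casp12) was lower in Akk, against 272 genes (3.40%) of the table. The groups did not overlap for 2 of the 9 genes (Nod2 and Casp12), against 15.4% of the table with all Akk values below all Ctrl values. After the scale factors, the same 2 genes did not overlap, against 4.32% of the table, and with each library centred on its own median Casp12 alone did not, against 4.42%. The median log2 difference (Akk minus Ctrl) of the 9 genes was -1.23, beside -0.87 over the table. After the scale factors these medians were -0.34 and -0.02, and without Ctrl 1 they were -0.45 and -0.24.

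**Figure D3:**
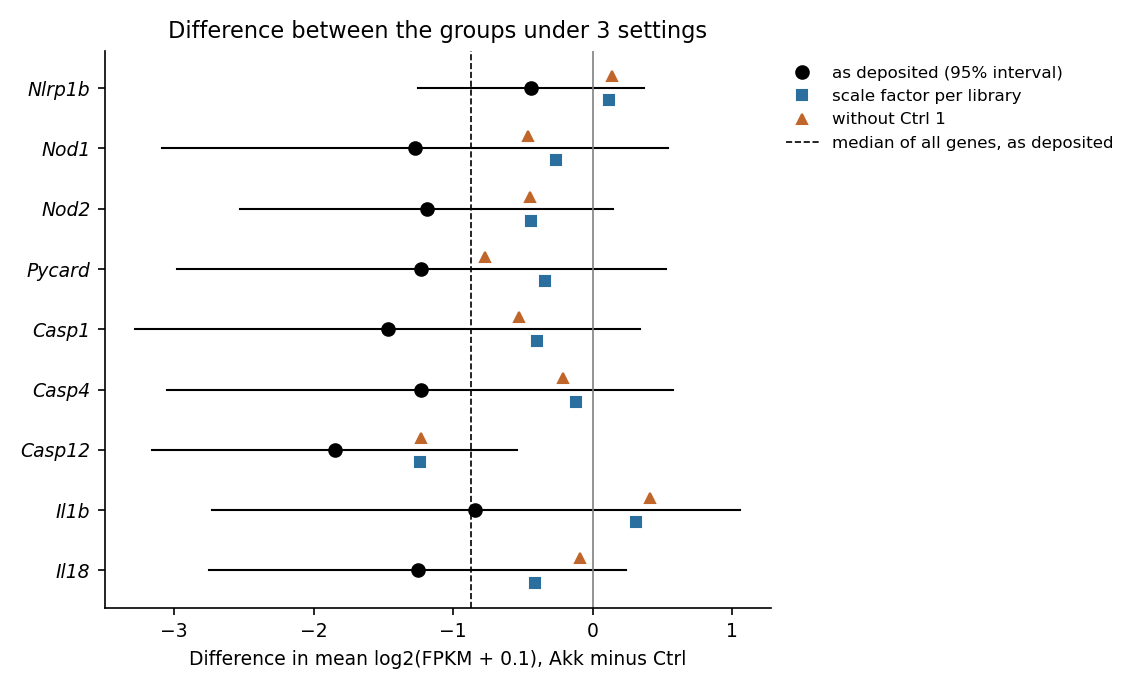
Difference in mean log2(FPKM + 0.1), Akk minus Ctrl, for each gene as deposited (circle with its 95% interval, limma, 3 against 3 libraries), after a scale factor per library (square) and without Ctrl 1 (triangle). The interval of Casp12, from -3.16 to -0.54, is the only one that leaves out 0, and Nlrp1b and Il1b turn to the positive side under both other settings.

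Among the sensors, Nod2 was the one whose groups separated. Its FPKM was 0.92, 0.15 and 0.09 in Ctrl 1, 2 and 3 and 0.06, 0.05 and 0.07 in Akk 1, 2 and 3. Each Akk library lay below each Ctrl library, although the gap between Ctrl 3 and Akk 3 was 2 steps of the last printed digit. The mean was 0.387 ± 0.463 in Ctrl and 0.0600 ± 0.010 in Akk (SD, n = 3), and the log2 difference was -1.19 with an SE of 0.68 and an adjusted p of 0.487 (limma). After the scale factors, the Nod2 values were 0.135 to 0.201 in Ctrl and 0.0778 to 0.107 in Akk and still did not overlap, with a log2 difference of -0.44 and an adjusted p of 0.999 (limma). Without Ctrl 1 the log2 difference was -0.45. Relative to the neutrophil and the monocyte markers of the same library, the Nod2 difference turned to 0.52 (SE 0.70) and 0.50 (SE 0.73). These 2 values depend on the 0.1 added to each FPKM, which shrinks the difference of a low gene more than that of a highly expressed marker. The markers were read from the same selected genes, so the direction of their own difference is no result about cell types. With 0.01 added instead, Nod2 differed by -1.82, not relative to the markers. The relative values were not computed with 0.01.

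Nod1, which senses a peptidoglycan fragment found mostly in Gram-negative bacteria, was the most abundant of the 3 sensors. Its FPKM was 3.5, 0.62 and 0.5 in Ctrl and 0.6, 0.22 and 0.39 in Akk. Akk 1 lay within the Ctrl range, so the groups overlapped, and the log2 difference was -1.27 with an SE of 0.92 and an adjusted p of 0.487 (limma). Without Ctrl 1 it was -0.46, and after the scale factors -0.26. Within a library, the Nod1 FPKM was 3.80, 4.13 and 5.56 times that of Nod2 in Ctrl and 10.0, 4.40 and 5.57 times in Akk. The log2 ratio of Nod2 to Nod1 differed between groups by 0.08 (two-sided exact permutation p = 0.900; adjusted over 9 gene pairs 0.900), or by -0.50 with no pseudocount (exact permutation p = 0.200), so its direction depended on the pseudocount and neither value exceeded the spread.

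Nlrp1b, a sensor that can be activated when a protease cuts it, was close to the bottom of the scale. Its FPKM was 0.28, 0.03 and 0 in Ctrl and 0.01, 0.02 and 0.05 in Akk. Apart from Ctrl 1, no library exceeded 0.05 FPKM, and the groups overlapped. In the fit it differed by a log2 value of -0.44 with an SE of 0.41 (adjusted p = 0.487, limma), and it turned to 0.14 without Ctrl 1 and 0.12 after the scale factors. The Nlrp1b transcript aligned to that of the neighbouring paralog Nlrp1a over 85.3% of its length at 85.4% identity, so some reads may have been split between these genes; none of the 9 genes had another gene aligned over at least 50% of its transcript at 95% identity.

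Pycard encodes ASC, the adaptor through which many sensors reach caspase-1. Its FPKM was 1.11, 0.56 and 0.24 in Ctrl and 0.24, 0.14 and 0.16 in Akk. The highest Akk library equalled the lowest Ctrl library, so the groups touched. The log2 difference was -1.23 with an SE of 0.89 (adjusted p = 0.487, limma), -0.77 without Ctrl 1 and -0.34 after the scale factors. As a plain ratio of FPKM, Pycard stood out least in Ctrl 1 of the genes described here, at 4.63 times the median of the other 5 libraries. With the pseudocount added, Nlrp1b stood out less than Pycard. On that scale, 25.9% of genes of the table lay at or below Nlrp1b and 33.6% at or below Pycard. After the scale factors, Ctrl 1 was no longer the highest library of Pycard: the values were 0.243, 0.505 and 0.361 in Ctrl and 0.331, 0.218 and 0.245 in Akk. An uncharacterised GENCODE transcript (Gm45205) overlaps Pycard on the opposite strand, and the labels do not state a stranded library.

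**Figure D4:**
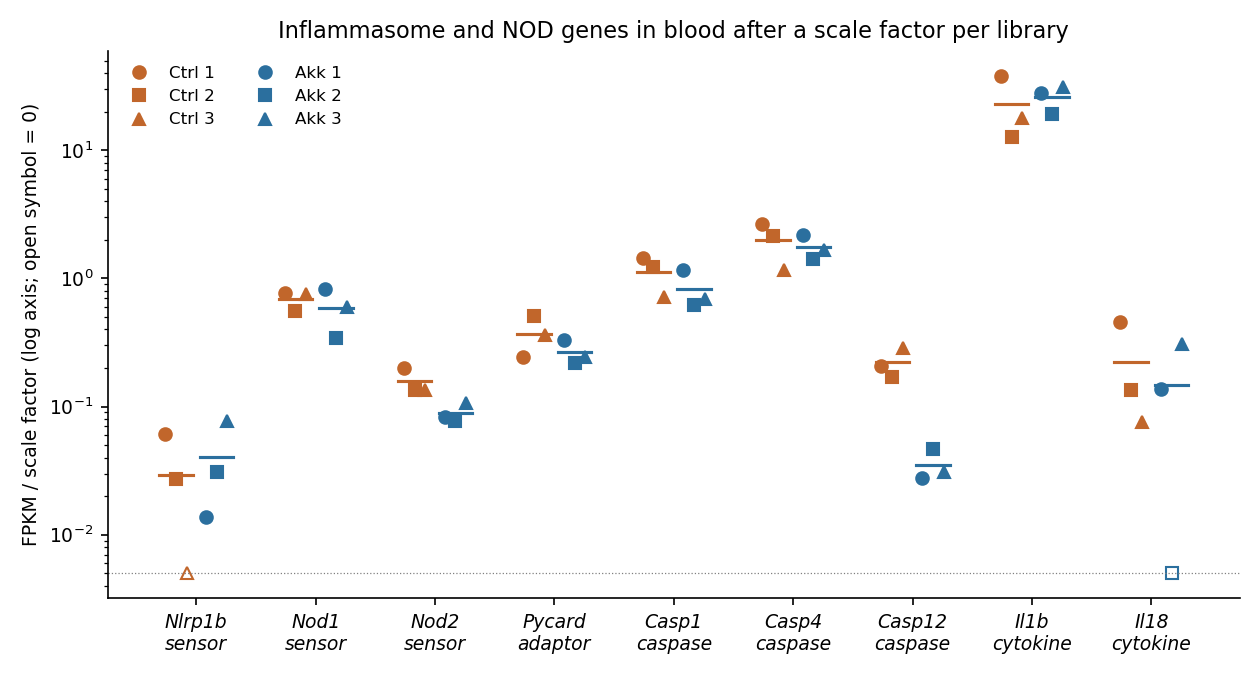
FPKM divided by a scale factor per library (log axis) for the 9 genes in each of the 6 blood libraries, with a line at each group mean; an open symbol marks 0. The Casp12 values are 0.171 to 0.286 in Ctrl and 0.0275 to 0.0467 in Akk, Nod2 separates by less, and the other 7 genes overlap.

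Casp12, a caspase of the endoplasmic reticulum that has been linked to damping of caspase-1 activity, had the largest difference of the 9 genes. Its FPKM was 0.95, 0.19 and 0.19 in Ctrl and 0.02, 0.03 and 0.02 in Akk. All 3 Akk libraries lay far below all 3 Ctrl libraries, with Ctrl 2 and Ctrl 3 at the same value. The mean was 0.443 ± 0.439 in Ctrl and 0.0233 ± 0.00577 in Akk (SD, n = 3), a ratio of 19.0, which rounding to 2 decimals leaves between 15.5 and 24.5. Without Ctrl 1 the ratio was 8.14, with bounds of 6.53 and 10.6 from rounding alone. The Akk values are 2 or 3 steps of the last printed digit, and the reads behind them are unknown.

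On the log2(FPKM + 0.1) scale, which understates differences at such low levels, Casp12 differed by -1.85 with an SE of 0.67 and a 95% interval from -3.16 to -0.54 (unadjusted p = 0.00556, adjusted p = 0.487, limma). In the table, 1.5% of genes had a difference at or below this one. After the scale factors, the difference was -1.24 with an SE of 0.25 (unadjusted p = 0.000355, adjusted p = 0.219, limma), and 0.5% of genes lay at or below it. Without Ctrl 1 it was -1.23 with an SE of 0.23 (unadjusted p = 0.000468, adjusted p = 0.341, limma), and 1.3% of genes lay at or below it. Casp12 was thus lower in 3 of 3 Akk libraries under each of these settings, and it passed the adjusted threshold under none of them. The neutrophil and monocyte markers differed in mean log2 level by -1.71 and -1.69, Akk minus Ctrl. They were read from the same selected genes, so the direction of this difference is no result about cell types. Relative to these markers, Casp12 differed by -0.14 (SE 0.70) and -0.17 (SE 0.74). The added 0.1 shrinks the difference of a gene as low as Casp12 more than that of highly expressed markers. With 0.01 added instead, Casp12 differed by -3.35, not relative to the markers. The relative values were not computed with 0.01.

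Casp1, the central inflammasome protease, followed Ctrl 1 closely. Its FPKM was 6.52, 1.36 and 0.48 in Ctrl and 0.85, 0.4 and 0.45 in Akk. Akk 1 lay between Ctrl 2 and Ctrl 3, so the groups overlapped. In the fit it differed by a log2 value of -1.47 with an SE of 0.92 (adjusted p = 0.487, limma), and it shrank to -0.53 without Ctrl 1 and -0.40 after the scale factors.

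Casp4, the sensor of intracellular lipopolysaccharide, had the highest level of the 3 caspases. Its FPKM was 12.26, 2.38 and 0.77 in Ctrl and 1.59, 0.91 and 1.1 in Akk. Ctrl 3 was the lowest of all 6 libraries, and the groups overlapped. The log2 difference was -1.23 with an SE of 0.93 (adjusted p = 0.487, limma), -0.21 without Ctrl 1 and -0.12 after the scale factors.

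A ratio of the FPKM of 2 genes within a library does not depend on the scale of that library; with a pseudocount it does in part. The Casp4 FPKM was 1.88, 1.75 and 1.60 times that of Casp1 in Ctrl and 1.87, 2.27 and 2.44 times in Akk. This ratio ran from 1.60 to 2.44 over libraries whose Casp1 FPKM ran from 0.4 to 6.52. The share of other genes with as narrow a ratio to Casp1 was not computed. The groups met at Ctrl 1 and Akk 1, whose order rounding leaves unresolved. The difference in log2 ratio was 0.24 on the log2(FPKM + 0.1) scale (two-sided exact permutation p = 0.200; adjusted over 9 pairs 0.900) and 0.33 with no pseudocount (exact permutation p = 0.200). The Casp1 FPKM was 6.86, 7.16 and 2.53 times that of Casp12 in Ctrl and 42.5, 13.3 and 22.5 times in Akk. The lowest Akk ratio, which rounding leaves between 11.3 and 16.2, lay above the highest Ctrl ratio, which rounding leaves between 6.95 and 7.38. The Casp4 FPKM was 12.9, 12.5 and 4.05 times that of Casp12 in Ctrl and 79.5, 30.3 and 55.0 times in Akk, again without overlap.

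**Figure D5:**
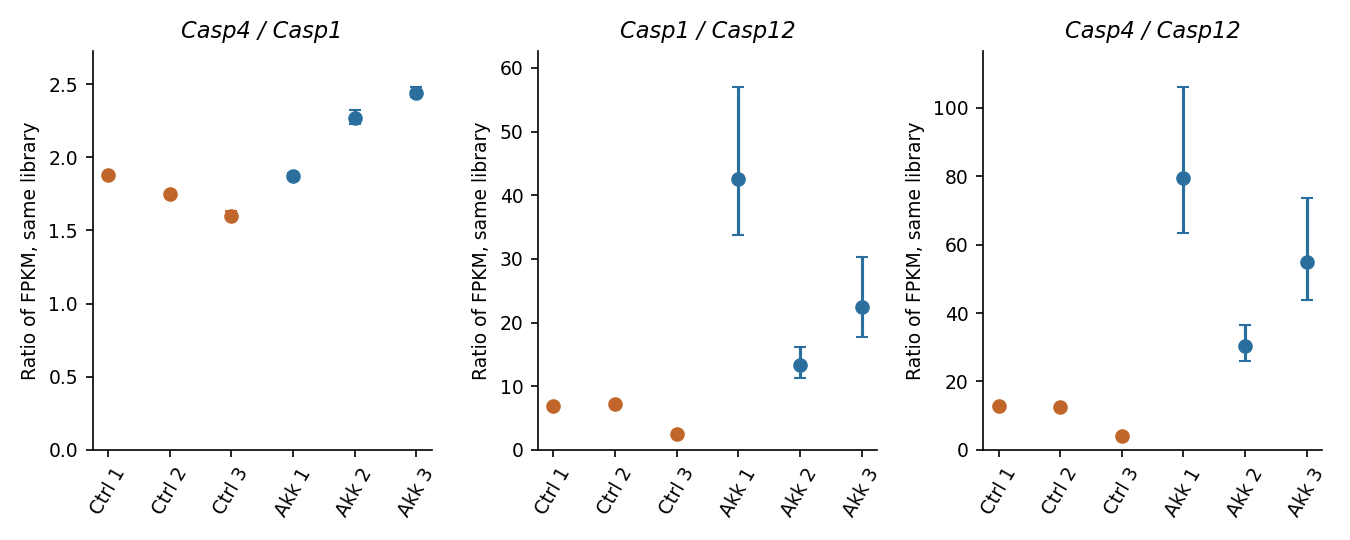
Ratio of FPKM between caspase genes in the same library, for 3 Ctrl (orange) and 3 Akk (blue) libraries; bars are the bounds that rounding to 2 decimals allows, not replicate errors, and bars smaller than a symbol do not show. Casp4 is 1.60 to 2.44 times Casp1 in all libraries, while Casp1 is 2.53 to 7.16 times Casp12 in Ctrl and 13.3 to 42.5 times in Akk.

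With no pseudocount, a setting chosen after the values were seen, the log2 ratio of Casp12 to Casp1 was -2.32 ± 0.85 in Ctrl and -4.55 ± 0.84 in Akk (SD, n = 3), a difference of -2.23. The two-sided exact permutation p was 0.10, the smallest that 3 against 3 libraries allow (adjusted over 6 pairs 0.300). The ratio of Casp12 to Casp4 differed by -2.55 (exact permutation p = 0.10, adjusted 0.300). Of the 6 pairs without a value at 0, these 2 pairs separated the groups. For context, of 7083 genes above 0 in all libraries, 30 (0.424%) had a ratio to Casp1 that was lower in all 3 Akk than in all 3 Ctrl libraries. With the pseudocount of 0.1, which is several times the Akk values of Casp12, the ratio of Casp12 to Casp1 differed by -0.38 (exact permutation p = 0.700) and that of Casp12 to Casp4 by -0.62 (exact permutation p = 0.500), and the groups overlapped.

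Of the cytokines, Il1b, the precursor of the fever-inducing cytokine interleukin-1 beta, had mixed values in the groups once Ctrl 1 was set aside. Its FPKM was 174.42, 14.01 and 11.92 in Ctrl and 20.4, 12.26 and 20.33 in Akk. Ctrl 1 was 12.4 times the median of the other 5 libraries, which lay between 11.92 and 20.4. The mean was 66.8 ± 93.2 in Ctrl and 17.7 ± 4.68 in Akk (SD, n = 3), and the mean of Ctrl 2 and Ctrl 3 was 13.0. In the fit it differed by a log2 value of -0.84 with an SE of 0.97 (adjusted p = 0.488, limma), and it was 0.41 without Ctrl 1 and 0.31 after the scale factors, so its direction rested on Ctrl 1. A GENCODE antisense gene, Il1bos, overlaps Il1b on the opposite strand.

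Il18, which encodes the interferon-gamma-inducing cytokine interleukin-18, was low and uneven. Its FPKM was 2.07, 0.15 and 0.05 in Ctrl and 0.1, 0 and 0.2 in Akk. Apart from Ctrl 1, which was 20.7 times the median of the others, the libraries of the groups were interleaved. The log2 difference was -1.25 with an SE of 0.76 (adjusted p = 0.487, limma), -0.09 without Ctrl 1 and -0.41 after the scale factors. The genes Bco2 and Tex12 overlap Il18 on the opposite strand.

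The remaining pairs were compared on the log2(FPKM + 0.1) scale, and their groups overlapped. The log2 ratio of Il1b to Casp1 was 4.12 ± 0.76 in Ctrl and 4.76 ± 0.41 in Akk (SD, n = 3; difference 0.64, exact permutation p = 0.400). The ratio of Pycard to Casp1 differed by 0.25 (exact permutation p = 0.800) and that of Il18 to Casp1 by 0.22 (exact permutation p = 0.800). The ratio of Nlrp1b to Casp1 differed by 1.03 (exact permutation p = 0.200), with Nlrp1b near its floor. The ratio of Il1b to Il18 differed by 0.42 (exact permutation p = 0.300). All 9 adjusted values were 0.900.

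Other genes of the pathway were read from a hand-written list of 96 genes, of which 74 were in the blood table. Of these, 0 were called in either direction and 4 had an unadjusted p under 0.05. As deposited, 15 of the 74 had all Akk values below all Ctrl values, against 1233 of the 8003 genes of the table (15.4%). After median centring 6 of the 74 did, against 354 of 8003 (4.42%). After the scale factors 2 of the 74 did (Gbp7 and Il18bp), against 346 of 8003 (4.32%). The same shares of the table stand beside the groups of this list described next. The median log2 difference of the 74 genes was -1.03, beside -1.23 for the 9 genes described here and -0.87 over the table.

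Among 12 other sensor genes, Nlrp1a, Nlrx1 and Naip2 did not overlap as deposited. Nlrp1a alone was without overlap after centring, and 0 were after the scale factors. Nlrx1, a mitochondrial NOD-like receptor, was at 16.47, 3.12 and 2.08 FPKM in the Ctrl libraries and 1.1, 1.82 and 1.08 FPKM in the Akk libraries. Ifi204, a DNA-binding interferon-inducible gene, had the highest mean of these sensors, with FPKM values of 31.55, 2.61 and 0.67 in Ctrl and 0.79, 0.23 and 1.04 in Akk. Its groups overlapped, and its log2 difference of -2.54 (SE 0.93, adjusted p = 0.487, limma) rested largely on Ctrl 1, since it was -1.06 without that library and -1.46 after the scale factors.

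Among 15 regulators of assembly, Gbp5, Gbp7 and Hsp90ab1 did not overlap as deposited, and Gbp7 alone did so after centring or the scale factors. Gbp7, an interferon-induced guanylate-binding protein, was at 4.91, 1.35 and 0.84 FPKM in Ctrl 1, 2 and 3 and 0.3, 0.47 and 0.44 FPKM in Akk 1, 2 and 3, with a log2 difference of -1.93 as deposited, -1.23 without Ctrl 1 and -0.89 after the scale factors. Of the genes of pyroptosis and cell death, Gsdme and Ripk1 were among those that did not overlap as deposited. Casp8 and Ripk1 were without overlap after centring, and 0 of these genes were after the scale factors. Ninj1, which ruptures the membrane of dying cells, had the highest mean of these, with 36.78, 12.09 and 5.33 FPKM in Ctrl beside 7.92, 6.98 and 6.71 FPKM in Akk. Its groups overlapped, and its log2 difference of -0.89 was -0.16 without Ctrl 1 and turned to 0.26 after the scale factors.

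Among 18 genes of NOD signalling, Birc2, Tab2 and Mapk13 did not overlap as deposited. Birc2 and Tab2 were without overlap after centring, and 0 were after the scale factors. Among 7 genes of the cytokine family and its receptors, Il18bp, Il18r1 and Il18rap did not overlap as deposited, 0 did so after centring and Il18bp did after the scale factors. Il18bp, the secreted decoy of interleukin-18, had FPKM values of 2.8, 0.49 and 0.37 in Ctrl, above the 0.09, 0.28 and 0.24 in Akk, and its log2 difference was -1.68 as deposited, -0.86 without Ctrl 1 and -0.73 after the scale factors. Among 13 genes of the interleukin-1 receptor and Toll adaptors, 0 separated under any of these settings.

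The genes whose pattern was most like that of a given gene were found by Pearson correlation of log2(FPKM + 0.1), with each library centred on its median, over the 6 libraries and among 2366 genes with a mean of at least 1 FPKM. These are descriptions, and all genes share the same 6 libraries. Casp1 was closest to Phf11b (r = 0.991), Ifi209 (r = 0.991) and Ddost (r = 0.990). Casp12 was closest to Pdcd6ip (r = 0.960), Pcif1 (r = 0.960) and 2510039O18Rik (r = 0.948), and of these Pdcd6ip was at 7.38, 1.72 and 1.67 in Ctrl and 1.1, 1.03 and 0.92 in Akk. Il1b was closest to Cdk16 (r = 0.996), Atg7 (r = 0.982) and Nlrp3 (r = 0.977). Nlrp3 encodes a sensor upstream of caspase-1, and its FPKM was 5.55, 0.47 and 0.34 in Ctrl and 0.68, 0.39 and 0.8 in Akk, with the groups overlapping as for Il1b. Nod2 was closest to Laptm5 (r = 0.981), Rai2 (r = 0.980) and Elovl1 (r = 0.977), and Pycard to Emg1 (r = 0.959), Hcst (r = 0.954) and Psme1 (r = 0.952).

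In the hippocampus of the same mice, whose table held 284 genes, Casp4 was the 1 gene of the 9 that was listed. Its FPKM was 0.24, 0.19 and 0.06 in Ctrl and 0.25, 0.12 and 0.18 in Akk, and the groups overlapped. The log2 difference was 0.15 with an SE of 0.41 and a 95% interval from -0.85 to 1.15 (adjusted p = 0.995, limma over the hippocampus table), in which 3 genes (1.06%) were called. The tables of the 2 tissues were normalized separately, so no test was made between them, and the other 8 genes were not analysed here in the hippocampus.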

How the data were processed

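Poly(A) RNA of whole blood and hippocampus was sequenced, and 1 expression table per tissue was used. Per the labels and the methods of the study, the authors deposited FPKM values, rounded to 2 decimals, for a selection of genes; the submitters' processing notes list TopHat2, Cufflinks and GRCm38, whereas the methods name HISAT2, Bowtie2 and RSEM. No counts or read totals are among the values, so the precision that depth gives could not be stated, and 0 columns were left unused.

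Values were analysed as log2(FPKM + 0.1) with limma 3.58.1 (R 4.3.3; moderated test with a mean trend) over all 8003 blood genes, without scaling in the main fit, and Benjamini-Hochberg adjustment. Thresholds were a fold change of 1.5 and an adjusted p of 0.05. Ratios of 9 gene pairs were compared with two-sided exact permutation tests over libraries, whose smallest p is 0.10. Scale factors were each library's median ratio to the geometric mean over the 1011 genes with at least 1 FPKM in every library. Similar transcripts were sought with blastn 2.17.0 in GENCODE M21, and promoter bases came from RefSeq (GRCm38.p6). The limma script was tested on simulated data with independent noise per gene. The simulation held no shift shared by a whole library, such as that of Ctrl 1, so it says nothing about such a shift. The named genes were the 9 genes, the listed genes of each pathway group with the highest mean or without overlap, and the 3 genes most correlated with each of Casp1, Casp12, Pycard, Nod2 and Il1b. The genes and lists were chosen with earlier results of these data known. Alternatives were other pseudocounts, a filter on low values, median centring, quantile normalization, a replicate block and leaving out each library; scale factors, levels relative to neutrophil or monocyte markers and ratios with no pseudocount were added after the data were seen. Same-numbered Ctrl and Akk libraries came from different mice, and their deviations from the group means correlated at 0.04, -0.01 and -0.10, so the numbers were not taken as pairs.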

Additional observations from a re-analysis of the deposited data

How the results depend on the processing

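The number of the 9 genes past the thresholds was 0 under every alternative run, with or without a replicate block. Over the whole blood table, 4 genes were called with a pseudocount of 0.01, 1 after median centring, 1 with the replicate block and 2 after median centring without Ctrl 1; leaving out 1 library at a time gave 0 to 23 calls, the 23 without Ctrl 3. The same leave-outs gave 0 to 1 calls among the 74 pathway genes, the 1 being Ifi204 without Ctrl 3 (log2 difference -3.74, SE 0.93, adjusted p = 0.0296, limma). The number of the 9 genes without overlap was 1 after median centring, against 4.42% of the table with all Akk values lower. Without Ctrl 1 it was 2, against 15.6% of the table. It was 1 after quantile normalization, and 2 to 6 over all runs that left out 1 library, where fewer libraries have to separate. The 6 came without Ctrl 3 and the 5 without Akk 1. The share of the table was not computed for quantile normalization or the other leave-outs, so those counts are no result about the 9 genes. Casp12 kept its sign in all 16 alternatives, at log2 differences from -3.35 to -0.14 and adjusted p from 0.130 to 0.860.

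The difference of Nlrp1b turned to 0.47 (centred), 0.25 (quantile), 0.14 (without Ctrl 1), 0.39 (centred without Ctrl 1) and 0.12 (scale factors), and that of Il1b to 0.08, 0.37, 0.41, 0.66 and 0.31 under the same settings. After centring without Ctrl 1, Casp4 turned to 0.04 and Il18 to 0.16. Relative to the neutrophil markers, 8 of 9 differences turned positive: Nlrp1b 1.27, Nod1 0.43, Nod2 0.52, Pycard 0.48, Casp1 0.23, Casp4 0.47, Il1b 0.87 and Il18 0.46. Relative to the monocyte markers they were 1.25, 0.41, 0.50, 0.46, 0.21, 0.45, 0.85 and 0.43 in the same order. The marker-relative values were computed with the pseudocount of 0.1 only, which shrinks the differences of low genes more than those of highly expressed markers. Not relative to the markers, 0.01 in place of 0.1 moved Nod2 from -1.19 to -1.82 and Il18 from -1.25 to -2.14. Casp1 moved less, from -1.47 to -1.59, as did Casp4, from -1.23 to -1.27, and Il1b stayed at -0.84. Some markers were low too, such as Ltf, with a mean of 0.510 FPKM in Akk. Each marker had equal weight, and single markers differed by -2.69 to -0.98 (neutrophil) and by -2.43 to -1.04 (monocyte). All markers were read from the selected genes of the blood table, so their shared direction is no result about cell types. Gene pair ratios turned with a pseudocount of 1 for Casp4/Casp1 (-0.04), Casp12/Casp1 (0.48), Casp12/Casp4 (0.52) and Il1b/Il18 (-0.33), with 0.01 for Nod2/Nod1 (-0.38) and Il18/Casp1 (-0.56), and with no pseudocount for Nod2/Nod1 (-0.50). Leaving out a library gave ranges that crossed 0 for Casp12/Casp1 (-0.71 to 0.12, turning without Ctrl 3), Pycard/Casp1 (-0.25 to 0.59, turning without Ctrl 1), Nod2/Nod1 (-0.16 to 0.36, turning without Akk 2) and Il18/Casp1 (-0.25 to 0.47, turning to -0.03 without Ctrl 2 and -0.25 without Akk 3); for the genes themselves it did so for Nlrp1b (-0.82 to 0.14) and Il1b (-1.52 to 0.41), both turning without Ctrl 1. Apart from leaving out Ctrl 1 and from what each setting computes, the cause was not tested.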
